A study of Mus musculus with 4 samples.

Results

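The tumor necrosis factor (TNF) superfamily was examined in KP lung tumours as 1 gene family of ligands and receptors. Members were the rows of the deposited count table whose symbol has the form Tnfsf or Tnfrsf followed by a number, together with Tnf, Lta, Ltb, Ltbr, Fasl, Cd40lg, Cd40, Cd27, Cd70 and Ngfr. These were 42 of 39017 rows, and they stood for 41 symbols, 17 ligands and 24 receptors, because Tnfrsf22 has 2 rows. RNA was sequenced from 4 macrodissected tumours that formed 1 group, the controls of the study, with 1 library per tumour. The mice were male, of strain C57BL/6, of the KP lung adenocarcinoma model, and carried p53Fl/Fl, floxed Trp53 alleles that Cre recombinase deletes. Each received 1500 viral units of lenti.PGK-Cre through the trachea and was killed 22 weeks and 5 days later, and the age of the animals was not given in the sources used here. The PGK promoter is active in most cell types, so Cre was not restricted to 1 kind of lung cell. The labels also give the genotype "heterozygous fl/wt" with no gene beside it, while the same tumours are headed WT in the log2 file. In the methods of the study, a control mouse carried 0 or 1 floxed copy of Slc2a1, the gene for the glucose transporter Glut1. The tumours were dissociated to single cells before RNA extraction. The study took RNA either from bulk tumours or from fractions freed of immune cells. The 4 tumours here are read as bulk tumours, so their libraries hold tumour, immune and stromal transcripts together. They are called tumours 1 to 4 after the replicate number in the labels.

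TNF superfamily ligands are mostly membrane proteins that act as trimers, and many can be shed in soluble form. Their receptors recruit TRAF adaptors, which lead to NF-kB and stress kinase signalling, and those with a death domain can also recruit FADD and caspase-8 and start apoptosis. A few receptors are decoys that bind a ligand without passing on the signal. In the lung, epithelial and stromal cells use members such as the TNF receptors, the lymphotoxin beta receptor and Fn14 (Tnfrsf12a), whereas the costimulatory members act mainly between lymphocytes and antigen-presenting cells.

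Levels are given as CPM, the counts per 1000000 reads after TMM scaling, a method that sets library sizes so that most genes agree between libraries. Total counts per tumour lay between 8151613 and 8799007, and 3 counts, the most that a count of 0 allows, corresponded to 0.330 to 0.370 CPM, which covers counting error only. A gene was tested where its mean CPM was at least 1, which held for 14225 genes. The test was a chi-square test of the 4 counts of a gene against Poisson counting noise, adjusted over all tested genes by the Benjamini-Hochberg method, with a threshold of 0.05. Means are given ± SD over the 4 tumours (n = 4). Every adjusted p below comes from this chi-square test unless another test is named, and it says that tumours differed by more than counting, not why. Of all tested genes, 76.7% passed. The alveolar type 2 markers that define the presumed cell of origin were abundant. Their mean log2 CPM over the 6 genes was 11.23, 12.45, 12.34 and 12.46 in tumours 1 to 4. By this mean, tumour 1 stood apart from the others as the lowest, although Sftpb and Abca3 were lowest in tumour 3. Leukocyte genes were present in every tumour and were highest in tumour 3, where all 5 pan-leukocyte markers peaked (summed CPM 135.2 to 331 over the tumours). In bulk tissue, fewer cells of a type and less RNA per cell cannot be told apart.

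Receptor transcripts far exceeded ligand transcripts. Of the members, 28 reached a mean CPM of 1, which were 9 of 17 ligands and 19 of 24 receptors. A mean CPM of at least 10 was reached by 12 members and of at least 50 by 6, and those 6 were all receptors: Tnfrsf21, Tnfrsf1a, Tnfrsf12a, Ltbr, Tnfrsf1b and Tnfrsf23. Of the other 14 rows, 3 had no count in any tumour (Fasl, Cd70 and the second row of Tnfrsf22), 5 had at most 3 counts in each (Tnfsf4, Cd40lg, Ngfr, Tnfrsf13c and Tnfrsf17), and 6 lay above 3 counts in at least 1 tumour without reaching a mean CPM of 1. Levels of different genes are ranked as CPM per kilobase of the longest annotated transcript, and CPM itself is read within a gene across tumours. Summed on that scale, the receptors reached 397, 328, 228 and 292 in tumours 1 to 4 (311 ± 70.7, SD, n = 4) and the ligands 21.4, 36.6, 52.2 and 41.1 (37.8 ± 12.8, SD, n = 4). The receptor sum was above the ligand sum in each of the 4 tumours, by 18.6, 8.96, 4.36 and 7.11 times. Both sums differed most between tumours 1 and 3, in opposite directions. Single genes carried much of this. Tnfsf9 made up 13.9 of the ligand sum in tumour 1 and 37.8 in tumour 3. Tnfrsf12a made up 162 and 51.3 of the receptor sum in these tumours, and Tnfrsf21 54.6 and 19.8.

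**Figure D1:**
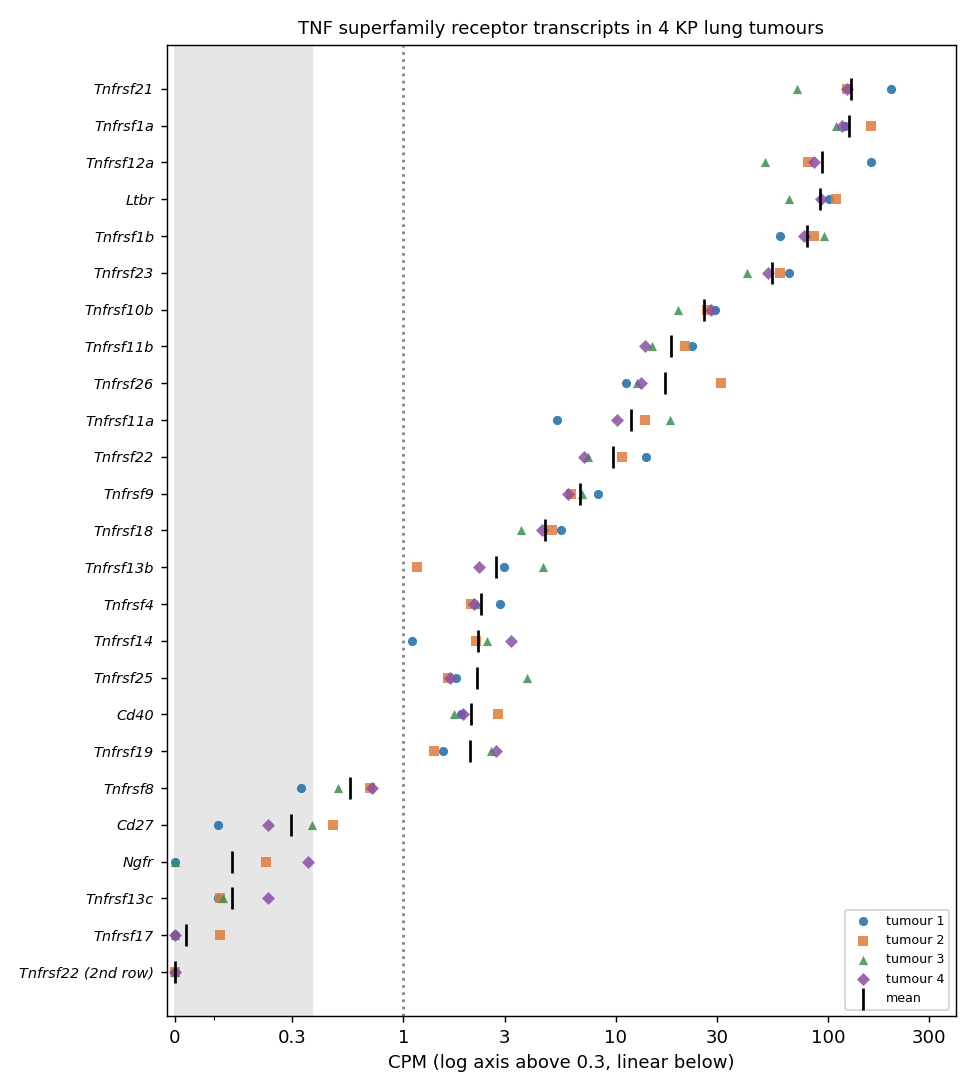
CPM of the 25 receptor rows (vertical axis, ordered by mean) in each of the 4 tumours (coloured symbols), with the mean as a black bar. The horizontal axis is logarithmic above 0.3 and linear below, the dotted line marks a CPM of 1 and the grey band reaches to the level of 3 counts in tumour 3. CPM is not corrected for length, so rows are read across tumours. Tnfrsf12a runs from 50.5 CPM in tumour 3 to 159.5 in tumour 1, and Tnfrsf17 and the second Tnfrsf22 row lie within the grey band in all tumours.

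In order of level per kilobase, Tnfrsf12a stood first (95.7 ± 47.0 CPM per kb, SD, n = 4), followed by Tnfrsf1a (58.6 ± 10.4), Ltbr (43.8 ± 9.01), Tnfrsf21 (35.7 ± 14.3) and the first ligand, Tnfsf9 (25.7 ± 9.87). Tnfrsf1b (20.9 ± 4.05), Tnfrsf23 (16.3 ± 3.10) and Tnfrsf10b (8.20 ± 1.37) came next. The 5 highest receptors held 84.8%, 80.7%, 78.2% and 82.1% of the summed receptor level per kilobase. Of the 27 neighbouring pairs in this order of 28 members, 4 kept the same order in all tumours: Tnfrsf12a above Tnfrsf1a, Tnfrsf1a above Ltbr, Tnfrsf23 above Tnfrsf10b, and Tnfrsf10b above Tnfrsf11b. The remaining 23 pairs of neighbours changed order in at least 1 tumour, so their ranks cannot be separated with these tumours. Tnfrsf12a was 1.01 times Tnfrsf1a in tumour 3, against 2.91 times in tumour 1. The first place and 2 of the 4 fixed orders rested on the length used. Per kilobase of all annotated exons, Tnfrsf12a (48.7 ± 23.9) and Tnfrsf1a (48.8 ± 8.61) were level, Tnfrsf12a was above Tnfrsf1a in 1 of 4 tumours (1.78, 0.682, 0.62 and 0.983 times), and Tnfrsf10b was above Tnfrsf11b in 1 of 4. Per kilobase of coding sequence, Tnfrsf12a was first (226 ± 111) and Tnfrsf23 second (104 ± 19.7). Tnfrsf1a above Ltbr and Tnfrsf23 above Tnfrsf10b held in all tumours on each of the 3 lengths.

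The promoters of 4 members are shown because they belong to 1 of the 2 receptors highest per kilobase of transcript (Tnfrsf12a), to another receptor with a high and variable level (Tnfrsf21), to the TRAIL ligand (Tnfsf10) and to RANK (Tnfrsf11a), whose order across the tumours was the reverse of that of Tnfrsf12a. Each runs from 250 bases before to 50 after the RefSeq start, 5′ to 3′ on the gene's own strand, in build GRCm38.p6. Capitals mark the GC box, GGGCGG on either strand. The windows are chr17:23677400-23677699 (minus strand), chr17:43016305-43016604 (plus), chr3:27316827-27317126 (plus) and chr1:105780473-105780772 (plus), in this order.
Tnfrsf12a: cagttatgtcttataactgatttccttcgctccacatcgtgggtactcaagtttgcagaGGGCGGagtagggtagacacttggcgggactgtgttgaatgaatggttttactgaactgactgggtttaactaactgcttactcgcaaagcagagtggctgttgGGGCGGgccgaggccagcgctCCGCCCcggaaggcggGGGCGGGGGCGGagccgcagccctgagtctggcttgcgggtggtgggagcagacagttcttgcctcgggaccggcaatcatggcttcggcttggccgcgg
Tnfrsf21: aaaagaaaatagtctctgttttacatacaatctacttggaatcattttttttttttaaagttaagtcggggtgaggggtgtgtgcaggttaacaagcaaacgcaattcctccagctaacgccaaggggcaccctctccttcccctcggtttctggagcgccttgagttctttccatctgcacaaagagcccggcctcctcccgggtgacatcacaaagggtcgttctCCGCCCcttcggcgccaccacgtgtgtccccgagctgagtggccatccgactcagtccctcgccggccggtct
Tnfsf10: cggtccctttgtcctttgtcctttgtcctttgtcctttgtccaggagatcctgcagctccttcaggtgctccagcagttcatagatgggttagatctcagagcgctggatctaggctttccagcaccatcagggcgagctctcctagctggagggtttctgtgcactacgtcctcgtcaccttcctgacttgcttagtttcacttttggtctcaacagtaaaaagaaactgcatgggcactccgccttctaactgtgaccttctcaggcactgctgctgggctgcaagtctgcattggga
Tnfrsf11a: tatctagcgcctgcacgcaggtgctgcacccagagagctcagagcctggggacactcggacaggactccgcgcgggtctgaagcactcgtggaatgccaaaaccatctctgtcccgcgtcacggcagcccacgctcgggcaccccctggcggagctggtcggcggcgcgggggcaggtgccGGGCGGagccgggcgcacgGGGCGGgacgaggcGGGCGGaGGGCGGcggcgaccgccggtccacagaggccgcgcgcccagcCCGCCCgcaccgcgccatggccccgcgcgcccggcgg

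Tnfrsf12a and Tnfrsf11a held 5 GC boxes each, Tnfrsf21 held 1 and Tnfsf10 none. The search covered both strands, and RefSeq windows were found for 31 of 41 symbols (35 windows). GC boxes were in 16 of these 35 windows (45.7%) and in 35.7% of 32851 windows of all genes. The AP-1 letters TGANTCA were in 6 (17.1%, against 7.81% of all), the NF-kB letters (GGG, any 2 bases, then TTTCC) in 3 (8.57%, against 1.63%), namely Ltb, Tnfrsf25 and Tnfrsf9, and the TATA letters TATAAA in 6 (17.1%, against 13.6%). None of the last 3 motifs was in the 4 windows printed above. A match describes these letters in this window and says nothing of factor binding.

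Among the inflammatory and lymphoid members, Tnfrsf1a, Tnfrsf1b and Ltbr were well detected, whereas Tnfrsf14 and the ligands had few counts. Tnf, the founding cytokine of the family, had a CPM of 1.43, 0.929, 2.71 and 1.78 in tumours 1 to 4 (mean 1.72 ± 0.753). These values came from few counts, and their spread missed the threshold (adjusted p = 0.0509). Leaving out tumour 1 (adjusted p = 0.0396) or tumour 4 (0.0211) put Tnf past it. Tnfrsf1a (ENSMUSG00000030341, GRCm38 chr6:125349362-125362484, plus strand), the death domain receptor for TNF, had a CPM of 120.3, 159, 109 and 117 (mean 126 ± 22.3). It was the steadiest of the abundant receptors, with a highest value 1.46 times the lowest (adjusted p = 6.55e-21). Tumour 2 alone was high, and without it the ratio was 1.10 (adjusted p = 0.116). Tnfrsf1b (chr4:145213463-145246870, minus strand), the other TNF receptor, which lacks a death domain and is used by leukocytes and endothelium, had a CPM of 59.9, 86.3, 96.3 and 77.4 (mean 79.96 ± 15.4). It was highest in tumour 3 and lowest in tumour 1, with a ratio of 1.61 (adjusted p = 3.29e-16). Per kilobase, Tnfrsf1a was above Tnfrsf1b in all 4 tumours, by 3.56, 3.26, 2.01 and 2.68 times. The ratio was lowest in tumour 3, where the pan-leukocyte list was highest (mean log2 CPM 4.61, 4.89, 5.94 and 5.04), and the part of leukocytes in it was not tested.

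Ltbr (chr6:125306571-125313885, minus strand), the lymphotoxin beta receptor, which shapes lymphoid tissue from the stromal and epithelial side, had a CPM of 102, 109, 65.8 and 92.8 (mean 92.4 ± 19.0), highest in tumour 2 and lowest in tumour 3 (ratio 1.66, adjusted p = 4.40e-20). Its ligands were scarce: Ltb had 6, 6, 8 and 5 counts and Lta 4, 4, 2 and 4 counts in tumours 1 to 4, and Tnfsf14 (LIGHT) had 3, 0, 4 and 0. Tnfrsf14, the HVEM receptor shared by LIGHT and lymphotoxin alpha, had a CPM of 1.10, 2.21, 2.47 and 3.21 (mean 2.25 ± 0.875) and was lowest in tumour 1 (adjusted p = 0.0378). That call was lost without tumour 1 (ratio 1.46, adjusted p = 0.481) and without tumour 4 (adjusted p = 0.109). Tnfrsf14 also shares stretches of at least 80 bases at 97% identity or more with transcripts of 4 other genes, so its reads are uncertain.

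Fn14 and DR6 both differed between tumours beyond counting noise. Tnfrsf12a (ENSMUSG00000023905, chr17:23675445-23677468, minus strand), the TWEAK receptor Fn14, a small receptor that is induced by growth factors and injury in epithelium, had a CPM of 159.5, 81.0, 50.5 and 85.8 in tumours 1 to 4 (mean 94.2 ± 46.3). Tumour 1 was high and tumour 3 low, and the highest value was 3.16 times the lowest (adjusted p = 1.40e-125). The ratio was 1.70 without tumour 1 and 1.97 without tumour 3, and both stayed past the threshold (adjusted p = 1.19e-17 and 2.05e-67). Its ligand Tnfsf12 (TWEAK) had a CPM of 3.30, 5.81, 3.21 and 6.18 (mean 4.63 ± 1.59), higher in tumours 2 and 4 than in tumours 1 and 3 (adjusted p = 0.00446). Of the exons of Tnfsf12, 48.3% are shared on the same strand with Tnfsfm13, a readthrough gene annotated across Tnfsf12 and Tnfsf13 that had 0 counts in all tumours, so reads in the shared part may have been dropped or moved between them. Tnfrsf21 (ENSMUSG00000023915, chr17:43016555-43089189, plus strand), DR6, a death domain receptor without a ligand in this family, had a CPM of 198, 124, 71.7 and 124 (mean 129 ± 52.0). It shared the ends of the order with Tnfrsf12a, highest in tumour 1 and lowest in tumour 3, with a ratio of 2.76 (adjusted p = 3.05e-114), which was 1.73 without tumour 1 (adjusted p = 1.24e-29) and 1.60 without tumour 3 (adjusted p = 9.95e-47). The mean log2 CPM of the 4 epithelial markers was 9.89, 9.30, 9.11 and 9.29. Of these, Epcam, Krt8 and Krt18 were highest in tumour 1 and Epcam alone was lowest in tumour 3, while Cdh1 stayed between 841.6 and 887.5 CPM. The alveolar type 1 list was highest in tumour 3 and lowest in tumour 2 (mean log2 CPM 7.09, 6.54, 7.61 and 7.33). The part of these markers in the differences was not tested.

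The TRAIL group consisted of 1 modest ligand and several receptors, most of them decoys. Tnfsf10 (chr3:27317028-27342427, plus strand), TRAIL, a ligand that can trigger apoptosis, had a CPM of 6.49, 9.64, 16.0 and 11.7 (mean 11.0 ± 4.00), highest in tumour 3 and lowest in tumour 1 (ratio 2.47, adjusted p = 7.97e-08). Tnfrsf10b (chr14:69767472-69784411, plus strand), the only signalling TRAIL receptor of the mouse, had a CPM of 29.4, 26.8, 19.7 and 28.3 (mean 26.1 ± 4.34). Only tumour 3 was low, and without it the 3 other tumours did not differ detectably (ratio 1.09, adjusted p = 0.655, against 7.67e-04 with it).

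The mouse decoy receptors Tnfrsf23 and Tnfrsf22 and the related Tnfrsf26 lie within 78.2 kb of chromosome 7 (GRCm38 chr7:143607659-143685872). Tnfrsf23 and Tnfrsf22 were both highest in tumour 1, followed by tumour 2, whereas Tnfrsf26 was highest in tumour 2. Tnfrsf23 had a CPM of 65.8, 59.4, 41.6 and 52.1 (mean 54.7 ± 10.4), highest in tumour 1 and lowest in tumour 3 (ratio 1.58, adjusted p = 2.55e-10). Tnfrsf22 had 13.9, 10.7, 7.40 and 7.14 (mean 9.77 ± 3.17), higher in tumours 1 and 2 than in tumours 3 and 4 (ratio 1.94, adjusted p = 1.49e-05). Tnfrsf26 had 11.2, 31.2, 12.6 and 13.2 (mean 17.1 ± 9.49), and tumour 2 stood above the other 3, which lay close together. Its adjusted p was 1.63e-28 over all tumours and 0.526 without tumour 2, with a ratio that went from 2.78 to 1.18. Per kilobase, Tnfrsf23 was 5.90, 6.91, 6.98 and 9.08 times Tnfrsf22 and 2.12, 2.10, 2.00 and 1.75 times Tnfrsf10b, so the decoy was above the signalling receptor in every tumour. The 3 clustered genes share no stretch of at least 80 bases at 97% identity with each other, but Tnfrsf22 shares one with 17 other genes and Tnfrsf10b with 15, and small parts of Tnfrsf23 (4.14% of its exons) and Tnfrsf26 (3.33%) overlap an antisense gene. Whether strand was used in the counting is not given in the sources used here, so reads of antisense partners may be included.

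In the RANK system the receptor differed widely between tumours and its ligand was scarce. Tnfsf11 (RANKL) had 2, 9, 3 and 6 counts in tumours 1 to 4. Tnfrsf11a (chr1:105780718-105847981, plus strand), RANK, which drives osteoclast formation and is also used by dendritic cells and some epithelia, had a CPM of 5.28, 13.8, 18.1 and 10.1 (mean 11.8 ± 5.47). It was lowest in tumour 1 and highest in tumour 3, with a ratio of 3.44 (adjusted p = 1.16e-13), and 1.80 without tumour 1 (adjusted p = 1.82e-04). Tnfrsf11b (osteoprotegerin, chr15:54250619-54278484, minus strand), the secreted decoy for RANKL and TRAIL, had a CPM of 23.0, 21.3, 14.9 and 13.8 (mean 18.2 ± 4.56), higher in tumours 1 and 2 than in tumours 3 and 4 (adjusted p = 4.39e-06). The decoy was above RANK per kilobase in all tumours, by 7.76, 2.74, 1.47 and 2.43 times.

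Among the costimulatory members, 1 ligand stood out. Tnfsf9 (ENSMUSG00000035678, chr17:57105325-57107757, plus strand), 4-1BBL, which on antigen-presenting cells costimulates T cells, had a CPM of 17.9, 30.6, 48.8 and 35.3 in tumours 1 to 4 (mean 33.1 ± 12.7). It was lowest in tumour 1 and highest in tumour 3 (ratio 2.72, adjusted p = 1.33e-26), and the ratio was 1.60 without tumour 1 (adjusted p = 1.46e-08). The antisense gene Gm11110, with 40, 28, 36 and 38 counts, overlaps 14.9% of the exons of Tnfsf9. Its receptor Tnfrsf9 (4-1BB), found on activated T and NK cells, had a CPM of 8.25, 6.16, 6.91 and 5.95 (mean 6.82 ± 1.04), a spread that did not pass the test (adjusted p = 0.268). The T cell list had a mean log2 CPM of 0.23, 0.31, 1.88 and 0.02 over the 4 of 9 markers tested and was highest in tumour 3. Of these markers, Cd3g was tested only because of tumour 3 (3.33 CPM there), and Lck was lowest in that tumour (2.35 CPM).

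The remaining costimulatory receptors were low. Tnfrsf18 (GITR) had a CPM of 5.50, 5.00, 3.58 and 4.52 (mean 4.65 ± 0.818), and 27.2% of its exons overlap the antisense gene Gm16008, which had 74, 57, 61 and 54 counts. Tnfrsf4 (OX40) had 2.86, 2.09, 2.22 and 2.14 (mean 2.33 ± 0.359) and Cd40, the receptor of B cells and antigen-presenting cells, 1.87, 2.79, 1.73 and 1.903 (mean 2.07 ± 0.483). None of these 3 receptors varied beyond counting noise (adjusted p = 0.335 for Tnfrsf18, 0.711 for Tnfrsf4 and 0.443 for Cd40). Of the ligands, Tnfsf8 (CD30L) had 1.76, 3.14, 3.08 and 1.67 (mean 2.41 ± 0.808). Its spread did not pass (adjusted p = 0.0903). Tnfsf18 (GITRL), used by endothelial and antigen-presenting cells, had 0.550, 0.581, 2.47 and 2.14 (mean 1.44 ± 1.01). It fell into a low pair, tumours 1 and 2, and a high pair, tumours 3 and 4 (ratio 4.49, adjusted p = 5.56e-04). Tnfrsf8 had 3, 6, 4 and 6 counts, Cd27 1, 4, 3 and 2, Tnfsf4 1, 1, 3 and 1 and Cd40lg 0, 1, 1 and 0, while Cd70 and Fasl had none. Markers of the lymphocytes that carry these genes were themselves low. Of the T cell list, 4 of 9 genes reached a mean CPM of 1, with a summed CPM over all 9 of 6.90 to 23.9 in the tumours, and Cd4 and Foxp3 each had 0 counts in 1 tumour. None of the 4 NK cell markers and 1 of 5 B cell markers (Cd79b) did.

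The B lineage members were low, and of the 3 tested, Tnfsf13 and Tnfrsf13b varied beyond counting noise. Tnfsf13 (APRIL), a survival factor for plasma cells made by myeloid cells, had a CPM of 0.660, 3.60, 3.46 and 3.09 (mean 2.70 ± 1.38). Tumour 1 was low and stood apart, and the ratio of 5.45 (adjusted p = 4.69e-04) became 1.16 without it (adjusted p = 0.865). Of the exons of Tnfsf13, 60% are shared with the readthrough gene Tnfsfm13. Tnfsf13b (BAFF), the B cell survival factor, had 1.43, 1.86, 1.48 and 1.31 (mean 1.52 ± 0.237) and did not pass the test (adjusted p = 0.828). Tnfrsf13b (TACI), a receptor for both, had 2.97, 1.16, 4.57 and 2.26 (mean 2.74 ± 1.43), highest in tumour 3 (ratio 3.93, adjusted p = 5.46e-04), with an adjusted p of 0.0526 without tumour 3 and a ratio of 2.02 without tumour 2 (adjusted p = 0.0412). Tumour 3 also had the highest mean log2 CPM of the plasma cell list (4.50, 4.45, 5.78 and 4.57 over 6 of 7 markers). Its summed CPM was instead highest in tumour 1 (1513, 1351, 1162 and 1125). Of its genes, Sdc1 was highest in tumour 1 and lowest in tumour 3 (1311, 1056, 806 and 844 CPM), and Xbp1 was highest in tumour 2. The part of this list in the values of Tnfrsf13b was not tested. The B cell receptors Tnfrsf13c and Tnfrsf17 had 1, 1, 1 and 2 and 0, 1, 0 and 0 counts.

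In the TL1A pair, Tnfsf15 (TL1A), a cytokine of endothelial and myeloid cells, had a CPM of 1.43, 3.60, 3.70 and 3.45 (mean 3.05 ± 1.08), and tumour 1 was low and apart (adjusted p = 0.0218, and 0.968 with a ratio of 1.08 without tumour 1). Its death domain receptor Tnfrsf25 (DR3), used by T cells, had 1.76, 1.63, 3.83 and 1.67 (mean 2.22 ± 1.07), and tumour 3 was high and apart (adjusted p = 0.00706, and 0.979 with a ratio of 1.08 without tumour 3). The orphan receptor Tnfrsf19 (TROY), associated with stem cell and Wnt target programmes, had 1.54, 1.39, 2.59 and 2.74 (mean 2.06 ± 0.696), a spread that did not pass the test (adjusted p = 0.131). Ngfr, the low-affinity neurotrophin receptor, had 0, 2, 0 and 3 counts.

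**Figure D2:**
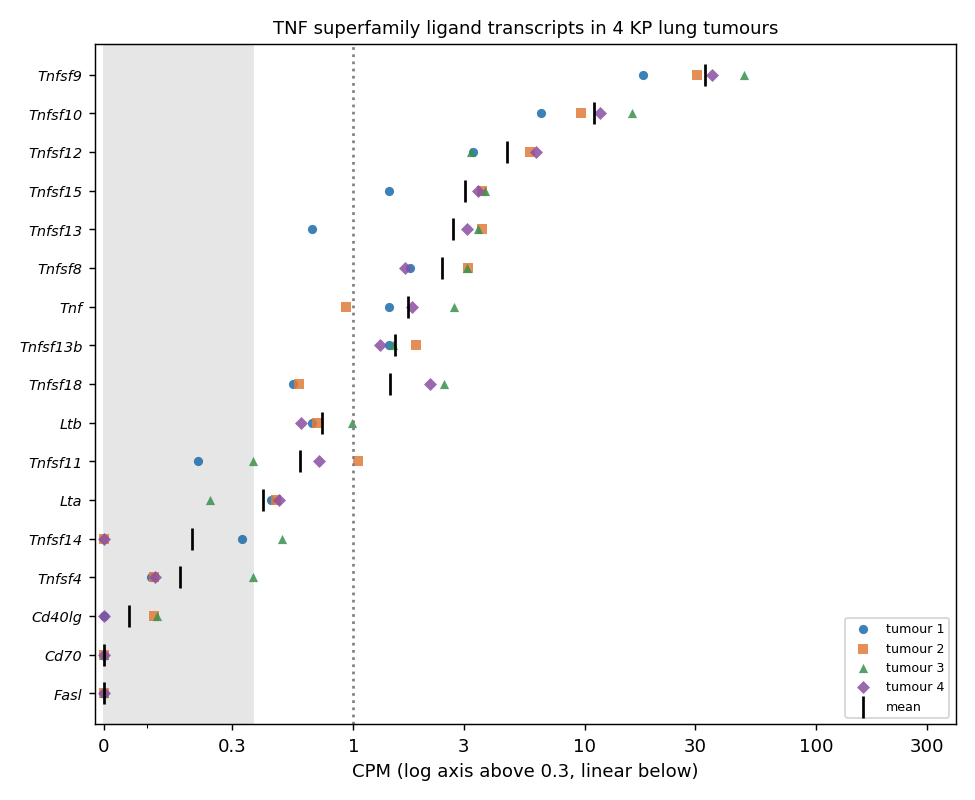
CPM of the 17 ligands (vertical axis, ordered by mean) in each of the 4 tumours (coloured symbols), with the mean as a black bar, on a horizontal axis that is logarithmic above 0.3 and linear below. The dotted line marks a CPM of 1 and the grey band the level of 3 counts in tumour 3. Tnfsf9 runs from 17.9 CPM in tumour 1 to 48.8 in tumour 3, and Fasl and Cd70 lie at 0.

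Members had their highest and lowest values in different tumours. Spread beyond counting noise was found for 20 of 28 tested members, 6 of 9 ligands and 14 of 19 receptors, against the 76.7% of all tested genes. A tumour stood apart from the others, with a gap to its neighbour above Dixon's limit of 0.83 of the whole range of log2 CPM, for 4 members (Tnfsf13, Tnfsf15, Tnfrsf25 and Tnfrsf26), against 5.86% of all genes. Tumour 1 held the highest value of 9 members, against 31.4% of all genes. All 9 were receptors (Tnfrsf4, Tnfrsf9, Tnfrsf10b, Tnfrsf11b, Tnfrsf12a, Tnfrsf18, Tnfrsf21, Tnfrsf22 and Tnfrsf23), and none of the 9 tested ligands was highest there. These counts take members regardless of the spread test, which Tnfrsf4 (adjusted p = 0.711), Tnfrsf9 (0.268) and Tnfrsf18 (0.335) did not pass. For Tnfrsf10b, tumours 1, 2 and 4 did not differ detectably (adjusted p = 0.655). Tumour 3 held the highest value of 9 members, 4 receptors and 5 ligands, against 30.2% of all genes, while tumour 2 held 7 (20.4%) and tumour 4 held 3 (18.0%). The lowest value lay in tumour 1 for 5 of 9 ligands and 4 of 19 receptors (30.4% of all genes), and in tumour 3 for 1 ligand and 8 receptors (32.5% of all genes). Tumours 2 and 4 held the lowest value of 5 members each, against 19.4% and 17.7% of all genes. Highest in tumour 3 together with lowest in tumour 1 were 6 members, Tnfsf9, Tnfsf10, Tnfsf15, Tnfsf18, Tnfrsf1b and Tnfrsf11a, against 15.6% of all genes, and the reverse held for 5 members, against 17.3%. No difference between these counts and the shares of all genes, or between ligands and receptors, was tested. Of the 6 members highest in tumour 3 and lowest in tumour 1, 2 had near ties. Tnfsf15 had 31, 30 and 29 counts in tumours 2, 3 and 4, and Tnfsf18 had 5 counts in both tumours 1 and 2.

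**Figure D3:**
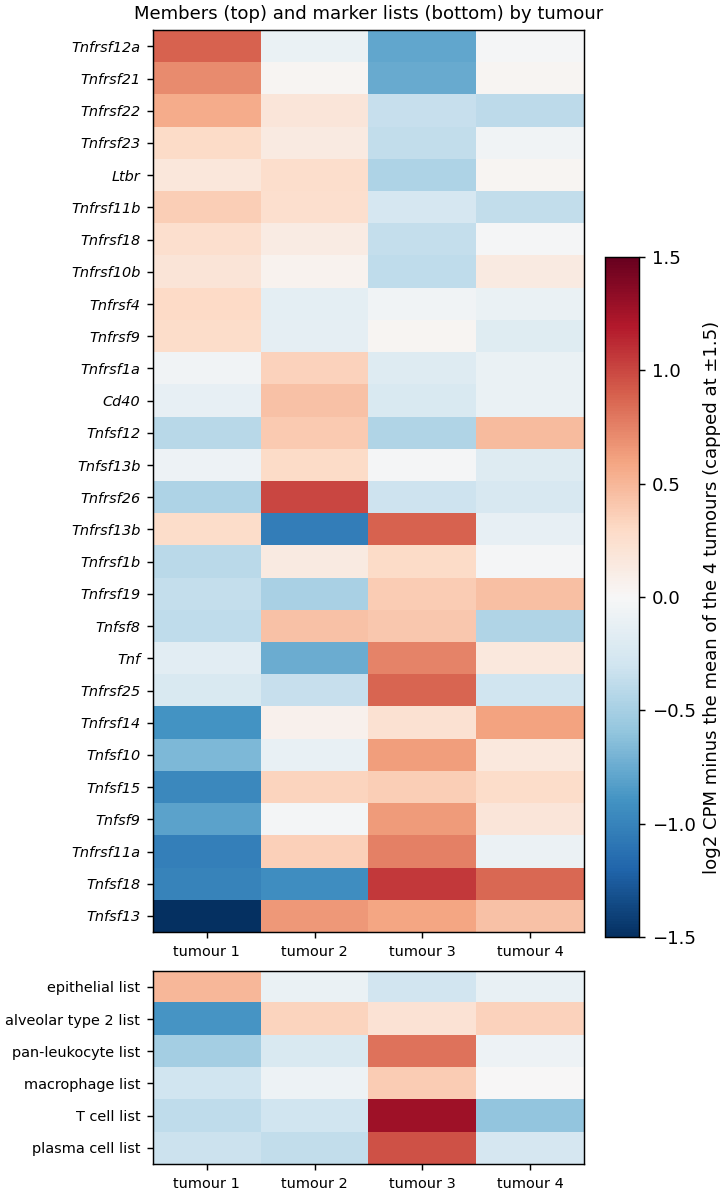
Colour shows log2 CPM minus the mean of the 4 tumours (red above, blue below, capped at ±1.5) for the 28 tested members, ordered from those highest in tumour 1 relative to tumour 3 down to the reverse, and for 6 marker lists below. Tnfrsf12a and Tnfrsf21 lie near the top, and Tnfsf18 and Tnfrsf11a near the bottom. The mean log2 CPM over the tested genes of the pan-leukocyte, T cell and plasma cell lists is highest in tumour 3.

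Several marker lists had their highest and lowest values in the same tumours as these members. The pan-leukocyte list was highest in tumour 3 and lowest in tumour 1, and the macrophage list had mean log2 CPM of 4.72, 4.94, 5.40 and 5.02, the neutrophil list 2.00, 2.82, 3.34 and 2.37 and the dendritic cell list 2.51, 3.49, 3.89 and 2.76, each also highest in tumour 3 and lowest in tumour 1. Single genes departed from this: C1qa of the macrophage list was highest in tumour 2 and lowest in tumour 3, and Csf1r was lowest in tumour 4. Of the neutrophil list, S100a8 was highest in tumour 1 and Retnlg in tumour 4. S100a8, S100a9 and Csf3r were lowest in tumour 4, as was the summed CPM of that list (30.26, 47.04, 66.64 and 27.47). The dendritic cell mean covered only the 2 of 5 markers tested, Itgax and Ccr7. Ccr7 was level in tumours 2 and 3 (2.09 and 2.10 CPM). The alveolar macrophage list (4.29, 3.87, 5.20 and 4.27) was highest in tumour 3 but lowest in tumour 2, and its genes Pparg and Fabp4 were highest in tumour 1. The fibroblast list had 5.91, 5.79, 6.19 and 5.43 and the endothelial list 4.85, 4.74, 5.11 and 4.68. Both were split by gene. Col1a1, Col1a2, Col3a1 and Pdgfrb were highest in tumour 1 and lowest in tumour 4, while Pdgfra and Dcn were highest in tumour 3. The summed CPM of the fibroblast list was highest in tumour 1 (565, 423.3, 531.5 and 320.8). Among endothelial genes, Cdh5 was highest in tumour 1, Kdr in tumour 2, and Pecam1, Tie1 and Cldn5 in tumour 3. Tumour 1 had in addition the lowest means of the alveolar type 2 and airway lists (airway list 1.56, 4.57, 4.13 and 3.91). Not every gene followed: Sftpb and Abca3 of the type 2 list were lowest in tumour 3, and the airway marker Ccdc39 was highest in tumour 1. The part of these lists in the values of the members was not tested.

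The spread of the members stood above the median of all genes of like level at a mean CPM of 10 or more. The median SD of log2 CPM between tumours was 0.50 over the 28 members and 0.29 over all tested genes. At a mean CPM of 1 to 10 the medians were 0.50 (16 members) and 0.49 (3956 genes). At 10 to 50 they were 0.57 (6 members, among them Tnfsf9, Tnfrsf11a and Tnfrsf26) and 0.27, and at 50 or more 0.31 (6 members) and 0.22. A highest value of at least 3 times the lowest was found for 5 members, Tnfsf13, Tnfsf18, Tnfrsf13b, Tnfrsf11a and Tnfrsf12a, against 12.7% of all genes.

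**Figure D4:**
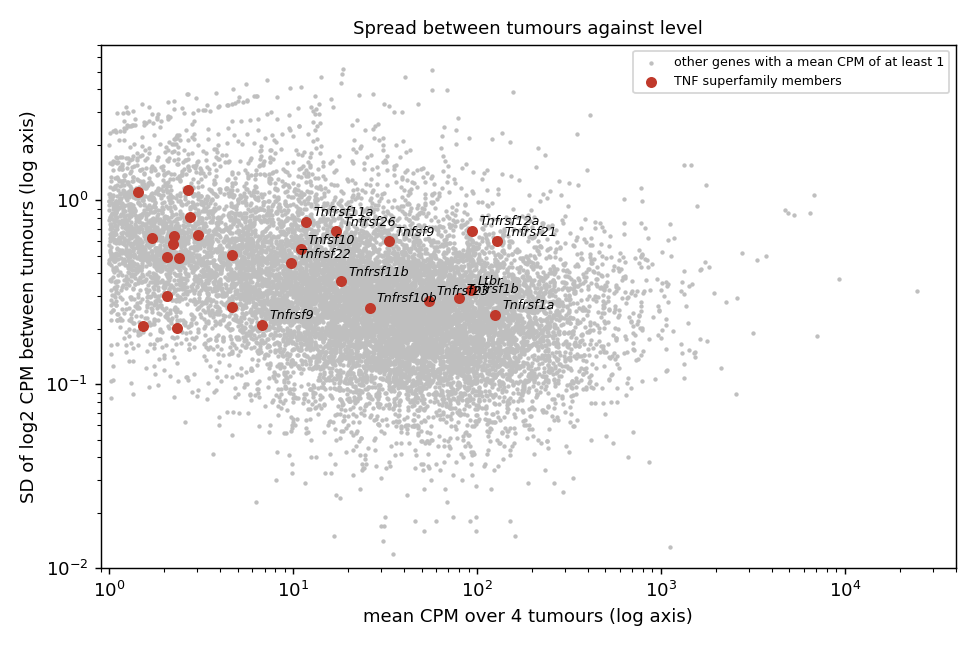
SD of log2 CPM between the 4 tumours (vertical log axis) against mean CPM (horizontal log axis) for all 14225 tested genes (grey) and the 28 members (red, with names at a mean CPM of at least 5). Tnfrsf12a and Tnfrsf21 lie in the upper part of the genes of their level, and Tnfrsf1a lies in the middle.

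Receptor and ligand were then compared within each tumour as the difference of log2 CPM per kilobase, to ask which side of a pair was the more abundant transcript. Of 26 listed pairs, 12 had both members at a mean CPM of 1 or more. The receptor was above in all 4 tumours for 8 pairs and the ligand for 1, and 3 pairs were mixed. With 4 tumours the smallest p of the exact two-sided sign-flip permutation test is 0.13, so none could pass 0.05, and the smallest adjusted p over the 12 pairs was 0.167. The count of 8 depended on the length used, and was 4 on coding length, where the order was no longer the same in all tumours for Tnfrsf18 minus Tnfsf18 (1.08 ± 1.35), Tnfrsf10b minus Tnfsf10 (0.91 ± 0.77), Tnfrsf11b minus Tnfsf10 (0.31 ± 0.87) and Tnfrsf13b minus Tnfsf13b (0.99 ± 0.95), and 2 pairs had the ligand above. Leaving out tumour 1 also raised the pairs with the ligand above in every remaining tumour from 1 to 2.

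The differences were wide for the TNF and TWEAK receptors. Tnfrsf1a exceeded Tnf by 5.84 ± 0.85 on the log2 scale (SD, n = 4), or 57.5 times, and by 5.94, 6.94, 4.90 and 5.59 in tumours 1 to 4. Tnfrsf12a exceeded Tnfsf12 by 4.82 ± 0.87 on the log2 scale (28.2 times). With the length of all annotated exons, this log2 difference was 3.92. Tnfrsf1b exceeded Tnf by 4.35 ± 0.60. Tnfrsf23 (2.94 ± 0.82), Tnfrsf10b (1.95 ± 0.77) and Tnfrsf11b (1.60 ± 0.87) were above Tnfsf10 in each tumour, while Tnfrsf22 was not (0.12 ± 0.97, above in 2 of 4 tumours). Tnfrsf18 was above Tnfsf18 by 2.74 ± 1.35, and TACI was above BAFF by 1.58 ± 0.95. The reverse was found for 4-1BB: Tnfrsf9 minus Tnfsf9 was -1.83, -3.01, -3.52 and -3.27 in tumours 1 to 4 (-2.91 ± 0.75, exact p = 0.13). TACI against APRIL (-0.65 ± 1.54) and DR3 against TL1A (0.56 ± 0.72) had no fixed order.

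**Figure D5:**
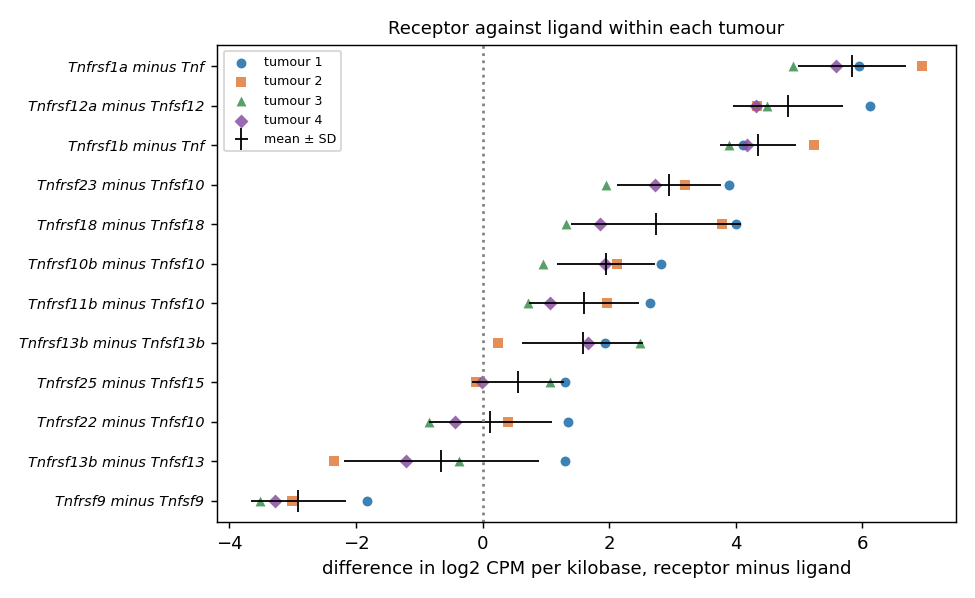
Receptor minus ligand in log2 CPM per kilobase (horizontal axis) for the 12 pairs with both members at a mean CPM of at least 1, with each tumour as a coloured symbol and mean ± SD (n = 4) in black. The dotted line marks equal levels. Tnfrsf1a minus Tnf lies furthest right at a mean of 5.84 and Tnfrsf9 minus Tnfsf9 is the only pair whose 4 tumours all lie left of 0.

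Many members lie near another. Of 41 placed rows on 13 chromosomes, 22 fell into 9 groups whose neighbours were within 200 kb, and chromosomes 4 and 17 held 9 and 8 members. Genes lying between the members were not looked at, and no share over all genes was taken. On chromosome 17, Ltb, Tnf and Lta lie within 10.9 kb (chr17:35194439-35205351) and all were low. The group of Tnfsf9, Cd70 and Tnfsf14 (chr17:57105325-57194177, 88.9 kb) held the ligand highest per kilobase beside 1 with no count and 1 with at most 4. On chromosome 6, Ltbr and Tnfrsf1a, both abundant, lie within 130 kb of Cd27, which had at most 4 counts. Levels within 1 group could thus lie at both ends of the family's range.

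All 41 listed genes of the pathway downstream of these receptors, from the adaptors and death signalling genes to NF-kB and its targets, reached a mean CPM of 1. Of them, 34 (82.9%) varied beyond counting noise, with a median SD of log2 CPM of 0.31, against 76.7% and 0.29 over all genes. By list these were 9 of 9 adaptor and ubiquitin ligase genes, 8 of 8 death signalling genes, 9 of 12 NF-kB core genes and 8 of 12 feedback and target genes. Of the family genes outside the rule, 4 of the 5 tested passed. The highest per kilobase in each list were Birc3 (14.1 ± 3.01 CPM per kb), an inhibitor of apoptosis, Casp8 (38.3 ± 5.23), the initiator caspase, Tab2 (31.1 ± 4.71), Icam1 (98.1 ± 19.3), an adhesion molecule induced by NF-kB, and Adam17 (28.1 ± 2.96), the sheddase that releases TNF. Vcam1, another NF-kB target of endothelium, had a CPM of 259.9, 349, 65.0 and 246 and was lowest in tumour 3 (ratio 5.36). Cxcl1, a neutrophil chemokine, had 6.60, 12.8, 20.98 and 11.8 and was highest there (ratio 3.18, adjusted p = 1.63e-14). Relt, an orphan receptor of the family outside the rule, had 1.43, 0.813, 4.94 and 1.55, highest in tumour 3 (ratio 6.07, adjusted p = 2.46e-08). The targets of NF-kB did not share 1 direction.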

How the data were processed

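RNA of 4 KP lung tumours was sequenced as single-end reads of 85 nt from stranded libraries of polyadenylated RNA made from 500 ng. Per the submitters' processing notes, reads were handled with bcl2fastq 2.17, cutadapt 1.4.2, HISAT2, featureCounts 1.4.4 and edgeR on build mm10. The strand setting and annotation release are not given in the sources used here. The deposited counts are raw read counts per Ensembl gene with no normalization, and 156068 of 156068 values of the single and combined tables were equal. The deposited log2 values, which the authors made by TMM and voom, served as an alternative.

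The members, lists and tests were chosen with earlier results of these data known. Effective library sizes were totals (8151613 to 8799007 counts) times TMM factors (edgeR 4.0.16, R 4.3.3), CPM was the count divided by that size and multiplied by 1000000, and for log2 CPM each count was raised by 0.5 and each size by 1. Depth limits low members, and intervals at these sizes cover counting only. Spread was tested for each gene whose mean CPM reached 1 (chi-square against Poisson, 3 degrees of freedom, Benjamini-Hochberg over 14225 genes, scipy 1.17.1). The test was checked on simulated Poisson counts with known changes in some genes, which does not cover other variation beyond counting. A tumour was called apart above Dixon's limit of 0.83. For pairs, the signs of the 4 within-tumour differences were flipped in all ways (exact permutation test, two-sided). The design has 1 group, and nothing says how the 4 tumours were spread over mice. The p-values of the spread test set the differences between these samples against counting noise and do not measure the size of the spread. With 1 library per tumour, differences from library preparation are included. A further allele of the KP genotype is not reported here.

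Lengths and positions are from GENCODE M21 on GRCm38, in which the second Tnfrsf22 row was not found. Copies were found with BLAST 2.17.0 as stretches of at least 80 nt at 97% identity. Promoters are from RefSeq GRCm38.p6. All 127 entries of 20 gene lists were matched, 4 of them by identifier. Every member is accounted for by its values or counts. Of the pathway lists, the gene highest per kilobase in each list and those with a ratio of at least 3 or 1 tumour apart were named, and marker lists are given by their mean log2 CPM. Alternatives were DESeq2 1.42.0 size factors, library size only, no filter, a mean CPM of at least 10, a likelihood-ratio statistic, 2 added to the count, the deposited log2 table, exon union or coding length, and leaving out each tumour.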

Additional observations from a re-analysis of the deposited data

Results flagged for a closer look

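A sample far from the other 3 was sought in 94 results (28 members, 18 list means, the summed levels of ligands and of receptors, and 46 pathway and related family genes), and 8 passed Dixon's limit, where chance passes about 1 in 20. Tnfsf13 (0.66 CPM) and Tnfsf15 (1.43 CPM) were low in tumour 1. Tnfrsf26 was high in tumour 2 (31.2 CPM) and Tnfrsf25 in tumour 3 (3.83 CPM). Of the lists, the mean log2 CPM was high in tumour 3 for the T cell list (1.88), the plasma cell list (5.78) and the adaptor and ubiquitin ligase list (4.90). It was low in tumour 1 for the alveolar type 2 list (11.23). The T cell mean covered only the 4 of 9 markers tested. Of these, Cd3g reached a mean CPM of 1 only through tumour 3 (0.550, 0.581, 3.33 and 0.357 CPM), and Lck was lowest there (2.35 CPM). Whether this call holds with another filter was not tested. The summed CPM of the plasma cell list was highest in tumour 1 (1513), not in tumour 3 (1162). The 2 low ligands lay in the tumour with the lowest alveolar type 2 list mean, and the part of that tumour's cell makeup in these values was not tested.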

How the results depend on the processing

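No paired analysis was possible because the 4 tumours form 1 group. Members with a tumour apart numbered 4, but 7 with no filter on low values (16.3% of all genes apart) and 1 at a mean CPM of at least 10, where 12 of 12 members and 85.3% of all genes passed the spread test and 6.02% of all genes had a tumour apart. Leaving out 1 tumour, the members highest in a tumour numbered 9 to 11 for tumour 1, 8 to 12 for tumour 2, 11 to 12 for tumour 3 and 5 to 7 for tumour 4, and pairs with the ligand above in every tumour 1 to 2. On coding length, pairs with the receptor above in every tumour fell to 4 and those with the ligand above rose to 2, Tnfrsf13b minus Tnfsf13 became 0.06 and Tnfrsf25 minus Tnfsf15 -1.06. Without tumour 1, Tnfrsf22 minus Tnfsf10 became -0.29, the lowest of the values with 1 tumour left out, of which the highest was 0.44. On coding length Tnfrsf9 minus Tnfsf9 moved to -1.92 in the same direction, and the other pairs that moved are given with the pairs. Members passing the spread test numbered 17 to 20 when 1 tumour was left out, with 62.3% to 71.9% of all genes, and the single calls lost are given with the members. With no filter Tnfrsf14 missed the threshold (adjusted p = 0.0528), and with DESeq2 size factors Tnf passed it (adjusted p = 0.0490). The dependence of the order of levels on length is given with that order, and coding length was added there after seeing the data. Over all other results and alternatives run, the direction and the side of the threshold were kept. Members near 3 counts are limited by depth.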
